A study of Mus musculus with 51 samples.

Results

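The genes described here encode 10 subunits of the BAF chromatin remodelling complexes, *Smarca4*, *Smarca2*, *Smarcc1*, *Smarcc2*, *Smarcd1*, *Smarcd2*, *Smarcd3*, *Arid1a*, *Arid1b* and *Actl6a*. They were taken by symbol from a list of BAF genes, and each of the 10 was found among the 24538 genes of all 9 deposited expression tables. RNA-seq covered mouse ES cells (mESCs) and cells driven towards cardiac mesoderm with Bmp4 at 20 ng/ml, in 18 samples. F1G4 WT cells were sampled as undifferentiated aggregates before Bmp4 (ES) and on days 1, 2 and 3, with 2 samples per stage. Lines without *Eomes* (KO), without *T* (KO) or without both (dKO) were sampled on days 2 and 3, and the *Smad4* line, WT and KO, on days 1 and 2, with 1 sample per line and day by the labels. The study speaks of averaged replicates for KO cells too, and the number of samples behind a KO value is therefore unclear. All differentiated groups, WT and KO, received Bmp4.

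The *Eomes* and *T* KO lines are clones of F1G4 cells in which the promoter and the first exon were deleted by double nicking with Cas9, and the dKO line was made from the *Eomes* KO line. The *Smad4* KO line descends from single clones of a conditional line of 129S/SvEvxC57BL/6 background, in which Cre removed the first exon of *Smad4*. The WT cells of that line carry the conditional allele. The tables give a single FPKM value (fragments per kilobase of transcript, normalised between samples) for each gene and group. The summed FPKM differed between columns, for example 458639 in WT and 608585 in dKO cells on day 2. No spread between replicates, read depth or test can be had from such values, and every difference below lacks a replicate check. By the rule used throughout, a gene was examined where FPKM was above 1 in at least one of the groups compared, and called where the log2 ratio was above 1 or below −1, that is past 2-fold. "Rose" and "fell" are used of called genes.

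BAF complexes, the mammalian form of SWI/SNF, use ATP to slide or evict nucleosomes and so open enhancers and promoters. Each complex holds either Smarca4 (Brg1) or Smarca2 (Brm) as its motor, a core of Smarcc scaffold and Smarcd subunits, Actl6a with actin, and, in the canonical form, either Arid1a or Arid1b. Paralogs occupy the same place, so that a cell can change the make-up of its complexes by changing which paralog it transcribes. ES cells are known for a form with Smarca4, Smarcc1, Smarcd1 and Arid1a, which works with Oct4 and Sox2, and the form with Smarcd3 is known from heart development, where it works with Tbx5, Gata4 and Nkx2-5.

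The RefSeq promoter windows of 3 members are shown because these members hold the results below, *Smarca2* with the widest range over the WT stages, *Smarca4* with the narrowest, and *Smarcc1* with the largest single decrease in a KO line. Each window holds 300 bases around an annotated start on the GRCm38.p6 (mm10) assembly, most of them upstream, written 5′ to 3′ on the plus strand, which is the strand of all 3 genes, and capitals mark GGCGCC, a GC-rich sequence that Smad proteins can bind.
*Smarca2*, chr19:26604910-26605209: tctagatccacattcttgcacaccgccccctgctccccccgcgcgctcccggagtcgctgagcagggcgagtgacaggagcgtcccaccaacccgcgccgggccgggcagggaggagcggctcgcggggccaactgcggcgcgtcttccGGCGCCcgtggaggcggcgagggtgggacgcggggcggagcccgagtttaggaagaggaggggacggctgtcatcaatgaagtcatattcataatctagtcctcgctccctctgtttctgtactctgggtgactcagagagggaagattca
*Smarca4*, chr9:21615919-21616218: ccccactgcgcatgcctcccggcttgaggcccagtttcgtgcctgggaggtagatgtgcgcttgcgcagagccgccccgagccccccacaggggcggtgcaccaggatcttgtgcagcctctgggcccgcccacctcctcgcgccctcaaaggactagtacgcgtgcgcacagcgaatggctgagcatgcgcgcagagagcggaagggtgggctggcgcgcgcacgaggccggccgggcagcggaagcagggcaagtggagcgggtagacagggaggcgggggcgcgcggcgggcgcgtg
*Smarcc1*, chr9:110131774-110132073: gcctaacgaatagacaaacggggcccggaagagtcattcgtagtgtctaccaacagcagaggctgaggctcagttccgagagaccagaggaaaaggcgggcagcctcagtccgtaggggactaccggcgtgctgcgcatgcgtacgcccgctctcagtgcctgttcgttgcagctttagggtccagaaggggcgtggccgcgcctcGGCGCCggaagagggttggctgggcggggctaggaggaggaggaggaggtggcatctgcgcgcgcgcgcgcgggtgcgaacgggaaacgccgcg
The RefSeq promoter table used here gave 11 such windows for the 10 members, 2 of them for *Arid1a*, and *Smarcd2* had a window only at an internal start. GGCGCC, which is its own reverse complement, was found in 5 of the 11 windows, those of *Smarca2*, *Smarcc1*, *Smarcd2* and both of *Arid1a*, and in 11.9% of all 32851 promoter windows. Windows rich in CpG hold it more often, with 32.7% of the 8701 windows that have at least 20 CpG. All member windows but that of *Smarcd2*, which had 4 CpG, were of this kind, with 21 to 48 CpG, against 26.5% of all windows. The T-box sequence GGTGTGA, searched on both strands, was found in 0 member windows and in 3.98% of all windows, or 2.75% of those with at least 20 CpG. The Tcf/Lef sequences CTTTGAT and CTTTGAA were likewise in 0 member windows and in 8.65% of all windows, or 3.33% of those rich in CpG. These matches describe letters in 300 bases and not binding, and the windows of *Smarcd2*, *Smarcd3* and *Arid1b* and 1 of those of *Arid1a* lie inside the span of their gene, at an internal start.

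The groups were first checked against their targeted genes and markers. In the *Eomes* KO line, FPKM of *Eomes*, the T-box factor of early mesendoderm, was 2.42 against 9.42 in WT on day 2 and 0.276 against 20.3 a day later. In the *T* KO line, *T* (Brachyury) stood at 6.64 against 44.8 and then at 3.00 against 323. In dKO cells on day 3, *Eomes* stood at 0.346 and *T* at 1.93. *Smad4* did not fall in its KO line (39.4 against 33.8 in WT on day 1, 46.8 against 39.3 on day 2), but its value covers all exons of a gene that lost only the first, so it does not check this label.

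The summed markers of ES cells and of nascent mesoderm followed the labels of the WT stages, though not every ES cell gene did. The summed FPKM of 6 mesoderm genes (*T*, *Eomes*, *Mixl1*, *Mesp1*, *Fgf8* and *Wnt3*) was 1.39, 6.40, 84.3 and 441 at the 4 stages in order. That of 6 ES cell genes (*Pou5f1*, *Nanog*, *Sox2*, *Esrrb*, *Zfp42* and *Klf4*) was 1796, 927, 905 and 618. *Pou5f1* (Oct4) gave most of this sum at each stage (1002, 755, 740 and 465). *Nanog* was lowest on day 1 and higher again on days 2 and 3. Cardiomyocyte markers were low, with a summed FPKM of 6 genes of at most 5.74 in any group, and *Nppa* was listed at 0 in 13 of 14 groups. On WT day 3, 3 of the 6 were above FPKM 1, and *Actc1* stood at 4.10 in dKO cells on day 3. ES cells are grown on fibroblast feeder cells that were removed before differentiation, and 7 fibroblast genes summed to 0.600 in ES cells and 2.02 to 3.50 on WT days 1 to 3. RNA of a whole culture was measured, so that fewer cells of a type and less RNA per cell cannot be told apart.

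In the F1G4 WT time course the ATPase pair moved towards *Smarca2* while *Smarca4*, by far the more abundant, kept nearly the same level. FPKM of *Smarca2* (19:26605073-26778321, mm10) rose from 0.378 in ES cells to 2.14 a day later, stood at 2.93 on day 2 and rose again to 6.24 by day 3. This is 16.5-fold from ES cells to day 3, and the log2 range of 4.05 over the stages was wider than that of 95.2% of 11747 genes. The low ES value weighs on this fold, and with a pseudocount of 1 the log2 ratio was 2.39. FPKM of *Smarca4* (9:21616106-21704230) was 52.3, 53.3, 46.9 and 42.0 at the same stages, a log2 range of 0.34 that only 15.2% of genes went under. *Smarca4* therefore exceeded *Smarca2* 139-fold in ES cells and 6.73-fold on day 3. As a share of the summed FPKM of both ATPase genes, *Smarca2* made up 0.717%, 3.86%, 5.88% and 12.9%. RefSeq lists 3 curated transcripts of *Smarca2*, and the shorter ones start about 143 kb into the gene, 1 of them at 26748165, and hold 1961 and 1962 exonic bases against 5813 in the longest. A gene-level FPKM adds them up, so that transcripts of the full-length ATPase and of its short form cannot be told apart.

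The genes closest to the ATPases over all 14 groups were found by the root mean square distance between centred log2 profiles, computed with a pseudocount of 0.1 over 11062 genes. Those closest to *Smarca2* were *H2-D1* (0.35), *Grk3* (0.37) and *H2-Q4* (0.38), where the median gene was at 1.08. *H2-D1* and *H2-Q4*, which belong to the major histocompatibility complex class I genes, stood at 1.47 and 0.647 in ES cells and at 27.6 and 10.7 on day 3, and *Grk3*, a receptor kinase, at 0.117 and 2.28. Those closest to *Smarca4* were *Prkdc* (0.10), *Atr* (0.10) and *Med24* (0.11), against 0.49 for the median gene. *Prkdc* and *Atr* encode kinases of the DNA damage response and *Med24* a Mediator subunit.

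The scaffold pair also shifted, with the major paralog lower on day 3 than in ES cells and the minor one higher (log2 0.53, short of 2-fold). FPKM of *Smarcc1* (9:110132024-110240178) was 60.9, 61.5, 38.1 and 30.0 at the 4 WT stages, and that of *Smarcc2* (10:128459182-128490591) was 5.12, 7.18, 6.13 and 7.37. *Smarcc1* fell from ES cells to day 3 (log2 −1.02), just past the threshold, and with FPKM rescaled to TPM the ratio was −0.89. The share of *Smarcc2* in the pair went from 7.76% in ES cells to 19.7% on day 3, and the summed FPKM of the pair from 66.0 to 37.3. From day 1 to day 2 *Smarcc1* went from 61.5 to 38.1 in F1G4 cells and from 30.5 to 41.7 in WT cells of the *Smad4* line.

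Of the Smarcd subunits, which link the core to transcription factors, *Smarcd1* and *Smarcd2* supplied nearly all transcripts and changed order in F1G4 cells. *Smarcd1* (15:99702287-99713995) stood at FPKM 29.2, 31.1, 18.95 and 15.5 from ES cells to day 3, and *Smarcd2* (11:106263171-106272998) at 26.2, 20.1, 24.3 and 25.8. The log2 ratio of *Smarcd1* from ES cells to day 3, −0.92, missed 2-fold as deposited and passed it (−1.08) after subtraction of the median of gene groups by GC content and length, and *Smarcd2* had −0.02, which turned to 0.11 in TPM. *Smarcd2* made up 46.3% of the family in ES cells and 61.9% on day 3. *Smarcd3* (5:24592622-24624456), the subunit of the cardiac form, was the lowest member on day 3, with 1.18, 0.153, 0.620 and 0.382 at the 4 stages. It was called lower on day 1 than in ES cells (log2 −2.94), but the ratio was −0.92 with a pseudocount of 1. *Smarcd3* never made up more than 2.08% of the family in WT time-course cells. Its partners in the heart were also low, and *Gata4* reached at most 0.644 in any group, on day 3 of WT, and *Tbx5* and *Nkx2-5* at most 0.0312 and 0.130.

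*Arid1a* and *Arid1b*, whose large DNA-binding proteins define the canonical complex, came closer to each other in level. FPKM of *Arid1a* (4:133679008-133756769) was 26.0, 20.4, 13.0 and 12.3 from ES cells to day 3, a decrease of log2 −1.09 that was −0.95 in TPM. *Arid1b* (17:4994297-5347656) stood at 1.68, 2.16, 2.71 and 2.70, and its share of the pair was 6.08% in ES cells and 18.0% on day 3. *Actl6a* (3:32708546-32726973), the actin-related subunit of dividing cells, was the most abundant member at each WT stage, with 143, 121, 85.0 and 71.7. Its log2 ratio from ES cells to day 3, −0.996, missed the threshold. The neuronal paralog *Actl6b* stayed at 0.0890 or less in all 14 groups.

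**Figure D1:**
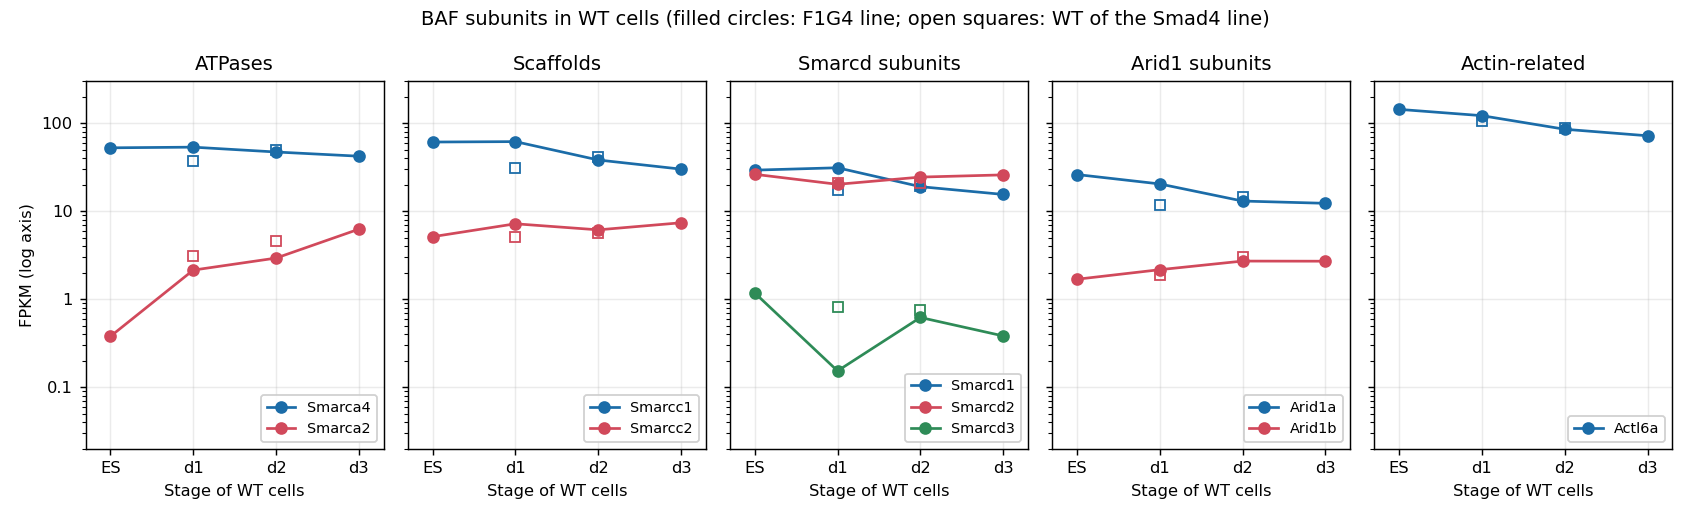
FPKM (log axis) of the 10 subunits by stage of WT cells, 1 panel per place in the complex, with filled circles for the F1G4 time course and open squares for WT cells of the *Smad4* line. In F1G4 cells *Smarca2* climbs from 0.378 to 6.24 below a nearly level *Smarca4*. On day 1 the squares of *Smarcc1*, *Smarcd1* and *Arid1a* sit below the circles.

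Counted over the list, 2 of 10 members passed 2-fold from ES cells to day 1 (*Smarca2* and *Smarcd3*), where 13.5% of all examined genes did. From day 1 to day 2 the count was 0 of 9 members examined (background 11.3%), and from day 2 to day 3 it was 1 of 9, *Smarca2* (background 10.2%, or 6.14% for higher genes alone), whose ratio of 1.09 was 0.88 with a pseudocount of 1. From ES cells to day 3 it was 4 of 10, with *Smarca2* higher and *Smarcc1*, *Arid1a* and *Smarcd3* lower, where 31.1% of all examined genes passed, 18.5% higher and 12.6% lower. The median log2 ratio from ES cells to day 3 was −0.62 over the members and −0.02 over all 11554 examined genes. Subtraction of the GC and length groups gave 5 members, with *Smarcd1* added, where 30.6% of all genes passed. With TPM the median over the same genes was 0.11, and 2 members, *Smarca2* and *Smarcd3*, passed, as did 31.2% of those genes. With a pseudocount of 1 there were also 2, *Smarca2* and *Arid1a*, where 22.9% of all genes passed. *Smarcd3* then stood at −0.66 and *Smarcc1* at −0.999. Just past the threshold were *Arid1a* (−1.09) and *Smarcc1* (−1.02), and just short of it *Actl6a* (−0.996) and *Smarcd1* (−0.92).

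WT cells of the *Smad4* line gave a yardstick for columns of cells with none of the deletions, across tables and with the line difference included. On day 1 the F1G4 cells were higher by log2 1.01 for *Smarcc1* (61.5 against 30.5), 0.85 for *Smarcd1*, 0.79 for *Arid1a* and 0.52 for *Smarca4*. They were lower by log2 −0.52 for *Smarca2* (2.14 against 3.08) and by −2.40 for *Smarcd3* (0.153 against 0.810). On day 1 the median absolute log2 difference was 0.52 for the members and 0.37 for all genes, and 10.8% of genes passed 2-fold. The day 1 difference between the lines was thus as large for *Smarcc1* as that between ES cells and day 3 in the time course (1.01 and −1.02). It was not far below the latter for *Smarcd1* (0.85 and −0.92, not called) and *Arid1a* (0.79 and −1.09). On day 2 the lines were closer, with medians of 0.14 for the members and 0.23 for all genes and 5.15% of genes past 2-fold. Among the members only *Smarca2* then differed by more than 1.5-fold (log2 −0.63, 2.93 in F1G4 against 4.54), as did 15.6% of genes. In the *Smad4* line the *Smarca2* share was 7.65% on day 1 and 8.51% on day 2, the *Smarcc2* share 14.2% and 12.0%, and the *Arid1b* share 13.8% and 17.2%, so that the day 1 shares lay above those of F1G4 cells for all 3 genes. *Smarcd2* made up 53.9% and 50.8% of its family there, against 39.2% and 55.4% in F1G4 cells, and so was above *Smarcd1* on both days. From day 1 to day 2 the direction was opposite in the WT lines for *Smarca4* (53.3 to 46.9 in F1G4, 37.1 to 48.8 in the *Smad4* line), *Smarcd1* (31.1 to 18.95, 17.3 to 19.2) and *Arid1a* (20.4 to 13.0, 11.8 to 14.4), as for *Smarcc1*. It was also opposite for *Smarcc2* (7.18 to 6.13, 5.07 to 5.68), *Smarcd2* (20.1 to 24.3, 21.1 to 20.6) and *Smarcd3* (0.153 to 0.620, 0.810 to 0.757), and the same for *Smarca2*, *Arid1b* and *Actl6a*. The share of all genes with opposite directions is not given here, so that nothing particular to the members can be read from this.

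**Figure D2:**
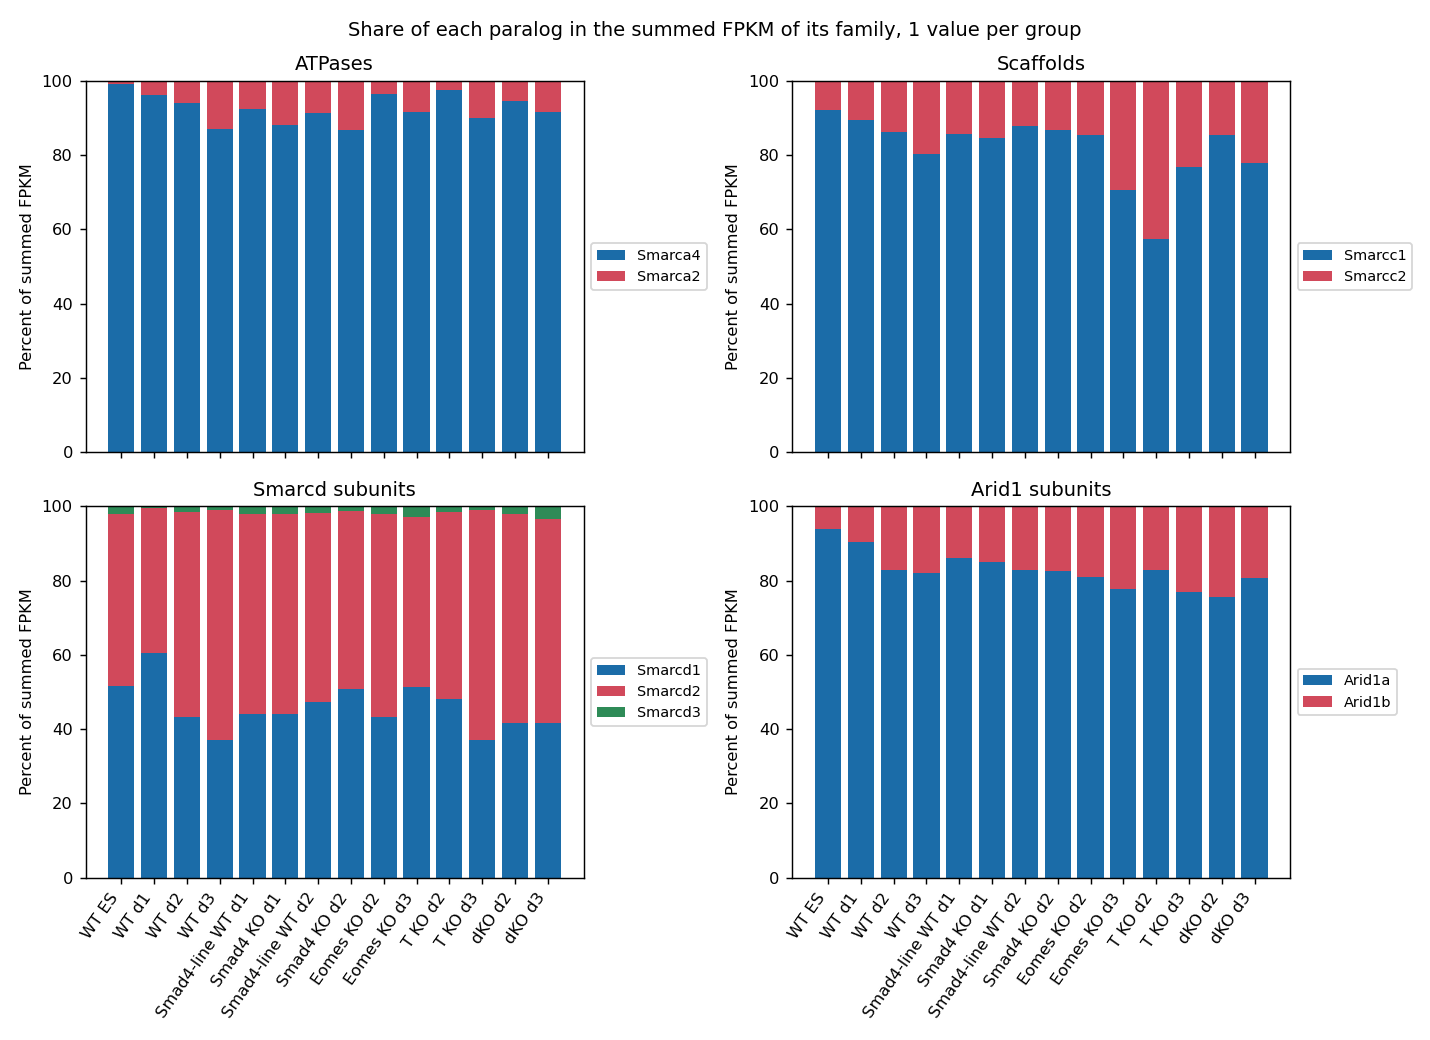
Share of each paralog in the summed FPKM of its family (percent) in the 14 groups, with 1 value and no error per group. The minor paralogs *Smarca2*, *Smarcc2* and *Arid1b* take a larger share on WT day 3 than in WT ES cells, and *Smarcc2* reaches its highest share, 42.4%, in *T* KO cells on day 2.

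The KO lines were then compared with WT cells of the same table, to ask whether loss of Smad4, *Eomes* or *T* altered the subunits. The *Eomes* KO, *T* KO and dKO comparisons share the F1G4 WT columns of days 2 and 3 as controls, so that their ratios are not independent. KO ratios also moved with transcript length and GC content. By their longest GENCODE transcripts, 8 of the 10 members are longer, and 8 richer in GC, than the median expressed gene. The medians were 3283 bases and 49.7% GC. The longest curated RefSeq transcripts of *Smarcd1* (3153 bases, 3307 in GENCODE) and *Smarcd3* (1725, 3774 in GENCODE) are shorter than that median length. The GC and length subtraction used the GENCODE values. The median log2 ratio of the longest quartile of genes less that of the shortest was 0.41 in the *Eomes* KO on day 3, −0.57 in the dKO on day 2 and −0.29 in the dKO on day 3, and for GC content, highest less lowest quartile, it was 0.21 in the *T* KO on day 2. Ratios are therefore also given after subtraction of the median of 20 groups of genes by GC content and by length. With TPM, over the same genes, the median gene stood at −0.23 and 0.24 in the *Eomes* KO on days 2 and 3, at 0.11 in the *T* KO on day 2, and at −0.42 and −0.14 in the dKO on days 2 and 3. The split of called genes went from 859 higher and 1048 lower to 1553 and 656 in the *Eomes* KO on day 3, and from 376 and 468 to 271 and 764 in the same line on day 2. On day 2 it also went from 647 higher and 1128 lower to 869 and 929 in the *T* KO, and from 390 and 504 to 203 and 1515 in the dKO. Where the minimum of 1 was set on TPM, which admits more genes, these splits were 2083 and 812, 391 and 1053, 1172 and 1083, and 279 and 1869, in the same order. Values of members in the KO lines are read beside these shifts, whose part in the results was not tested.

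*Smad4* KO cells, which cannot pass on Bmp or Nodal signals through Smad4, had 0 of 9 examined members past 2-fold on day 1 (background 4.77%) and 0 of 9 on day 2 (background 5.77%). The largest ratios belonged to *Smarca2*, at 5.15 in KO against 3.08 in WT cells on day 1 (log2 0.74) and 7.26 against 4.54 on day 2 (log2 0.68). It was the only member past 1.5-fold on either day, where 12.2% and 13% of all genes were, and its KO value of day 2 was its highest in the 14 groups. These differences were slightly larger than that between the WT lines. *Smarca4* stood at 37.1 and 38.2 on day 1 and at 48.8 and 48.2 on day 2, in WT and KO cells respectively. The *Smarca2* share was 11.9% against 7.65% on day 1 and 13.1% against 8.51% on day 2. On day 2 a larger sum of 6 neural genes (91.0 in KO, 41.5 in WT, with *Nes* the most abundant at 58.1 in KO and *Actl6b* at 0) and a smaller sum of the mesoderm genes (4.08 and 86.1) went along with it. The 7 fibroblast genes also had their highest sum of the 14 groups there (5.36 against 2.18 in WT), with *Thy1* at 2.04 against 1.26 and *Dcn* at 2.02 where WT was listed at 0. The part of these markers in the result was not tested. Counted over the list, 3 of 10 members on day 1 and 4 of 10 on day 2 differed more between *Smad4* KO and WT than between the WT lines, as did 31.4% and 44.3% of all examined genes. On day 2 this count was 5 of 10 in the *Eomes* KO (54.7% of all genes), 9 of 10 in the *T* KO (66.1%) and 9 of 10 in the dKO (61.1%).

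In *Eomes* KO cells on day 2, 0 of 9 members passed 2-fold (background 7.52%). *Smarca2* stood at 1.58 against 2.91 in WT (log2 −0.88) and *Actl6a* at 122 against 84.3 (log2 0.53). In TPM *Smarca2* was at −1.10, past 2-fold, as were 9.22% of the same examined genes. The other members lay within log2 0.48 of WT as deposited. The mesoderm genes summed to 41.1 against 83.5 in WT of the same table (16.3 against 31.0 without *T* and *Eomes*), and the ES cell genes to 998 against 898.

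On day 3 the *Eomes* KO had the largest number of called members in any KO column, 3 of 10, all higher, where 16.4% of all genes were called and 7.39% were higher. FPKM of *Arid1b* rose from 2.82 in WT to 7.44 in KO cells (log2 1.40), and that of *Arid1a* from 12.8 to 25.8 (log2 1.01). *Smarcd3* rose from 0.397 to 1.26 (log2 1.66). Both Arid1 genes thus stood higher together, and *Smarcc2* (7.70 and 11.7, log2 0.60) and *Smarca4* (43.9 and 61.8, log2 0.49) lay on the same side. *Smarcd2* was the lowest member and lay on the other side, at 19.8 against 27.0 (log2 −0.44, −0.16 in TPM). With the GC and length groups subtracted, *Arid1b* (1.04) and *Smarcd3* (1.56) stayed past 2-fold and *Arid1a* (0.69) did not, where 14.7% of all genes passed. *Smarcd3* reached only 0.69 with a pseudocount of 1, and *Arid1a* 0.96. *Smarca2*, *Smarcc1* and *Actl6a* had log2 ratios of −0.21, −0.17 and −0.07, which turned positive in TPM (0.07, 0.12 and 0.21). The median over the members was 0.48, and −0.04 over all genes. In these cells the mesoderm genes summed to 8.99 against 460 in WT of the same table (4.25 against 106 without *T* and *Eomes*), and the ES cell genes to 383 against 646. The fibroblast genes summed to 4.39 against 2.102, with *Postn* the most abundant at 1.46. The 4 endoderm genes (*Sox17*, *Foxa2*, *Gata6* and *Afp*) summed to 0.377 against 5.36, and the neural genes to 34.8 against 32.2. The part of these markers in the result was not tested.

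In *T* KO cells on day 2, 1 of 9 members passed 2-fold (background 15.6%, or 9.93% for lower genes alone). *Smarcc1* fell from 39.2 in WT to 11.5 in KO cells (log2 −1.78), its lowest value in the 14 groups and 3.42-fold below WT. In no other KO comparison was its log2 ratio beyond −0.32, and in *T* KO cells on day 3 it was −0.24 (30.3 and 25.7). The decrease was as large after subtraction of the GC and length groups (−1.80). *Rn45s* and *Gm5643*, above FPKM 10 in WT, were listed at 0 in this KO column. *Smarcc2*, at 6.32 in WT and 8.45 in KO cells, came to 42.4% of the scaffold pair against 13.9% in WT. The mesoderm genes summed to 57.2 against 86.9 in WT of the same table, where *T* alone gave 6.64 and 44.8, *Eomes* was higher in the KO (24.7 against 9.81), and the 4 other genes summed to 25.8 against 32.3. *Smarca2* stood at 1.63 against 3.03 (log2 −0.90), and *Arid1a* (13.4 and 20.3) and *Arid1b* (2.79 and 4.23) both at log2 0.60. Both Arid1 ratios were past 1.5-fold as deposited, where 36% of all genes were, and near 0.4 after the subtraction (0.40 and 0.43). On day 3 the *T* KO had 0 of 9 members past 2-fold (background 6.04%), with *Arid1a* at 8.13 against 12.4 (log2 −0.61) and *Smarca2* at 4.19 against 6.30 (log2 −0.59). The mesoderm genes without *T* and *Eomes* then summed to 24.4 against 102 in WT, and the ES cell genes to 465 against 624.

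In dKO cells on day 2, 0 of 9 members passed 2-fold (background 7.99%). *Arid1a* stood at 7.10 against 12.9 in WT (log2 −0.86), its lowest value in the 14 groups, *Smarca2* at 1.85 against 2.905 (log2 −0.65) and *Actl6a* at 134 against 84.2 (log2 0.67). After subtraction of the GC and length groups these were −0.27, −0.35 and 0.47, and the median over the members went from −0.19 to −0.0055. In TPM *Arid1a* (−1.26) and *Smarca2* (−1.06) passed 2-fold, as did 15.3% of the same examined genes, and the ratio of *Smarcd3* turned from 0.37 to −0.04. The mesoderm genes summed to 20.1 against 83.3 in WT of the same table (16.1 against 30.9 without *T* and *Eomes*). The ES cell genes summed to 1196 against 896, and the fibroblast genes to 1.76 against 2.96. The part of these markers was not tested.

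On day 3 of the dKO, 2 of 10 members were called (background 11%). *Smarca2* fell from 6.49 in WT to 2.93 (log2 −1.15) and *Smarcd3* rose from 0.396 to 1.32 (log2 1.74), its highest value in the 14 groups. Subtraction of the GC and length groups left *Smarcd3* at 1.67 and *Smarca2* at −0.998, and a pseudocount of 1 gave 0.73 and −0.93. *Smarca2* thus took 8.32% of the ATPase pair in dKO cells, against 12.9% in WT. The mesoderm genes other than *T* and *Eomes* summed to 20.4 in these cells against 105 in WT of the same table, and the neural genes to 58.7 against 32.1. The endoderm genes summed to 0.938 against 5.33. The part of these markers was not tested. *Gata4*, *Tbx5* and *Nkx2-5* stayed below FPKM 1 in both KO columns where *Smarcd3* was called, as in all others. Seen across the F1G4 KO lines as deposited, *Smarca2* had negative ratios in all 6 comparisons, from −0.21 to −1.15, and *Smarcd1* stayed within log2 0.46 of WT. In TPM the *Smarca2* ratio of *Eomes* KO cells on day 3 turned to 0.07. The 6 comparisons share their WT columns by day, and the dKO line was made from the *Eomes* KO line. The share of all genes with 1 sign in all 6 is not given, so that the agreement in sign is a description only.

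**Figure D3:**
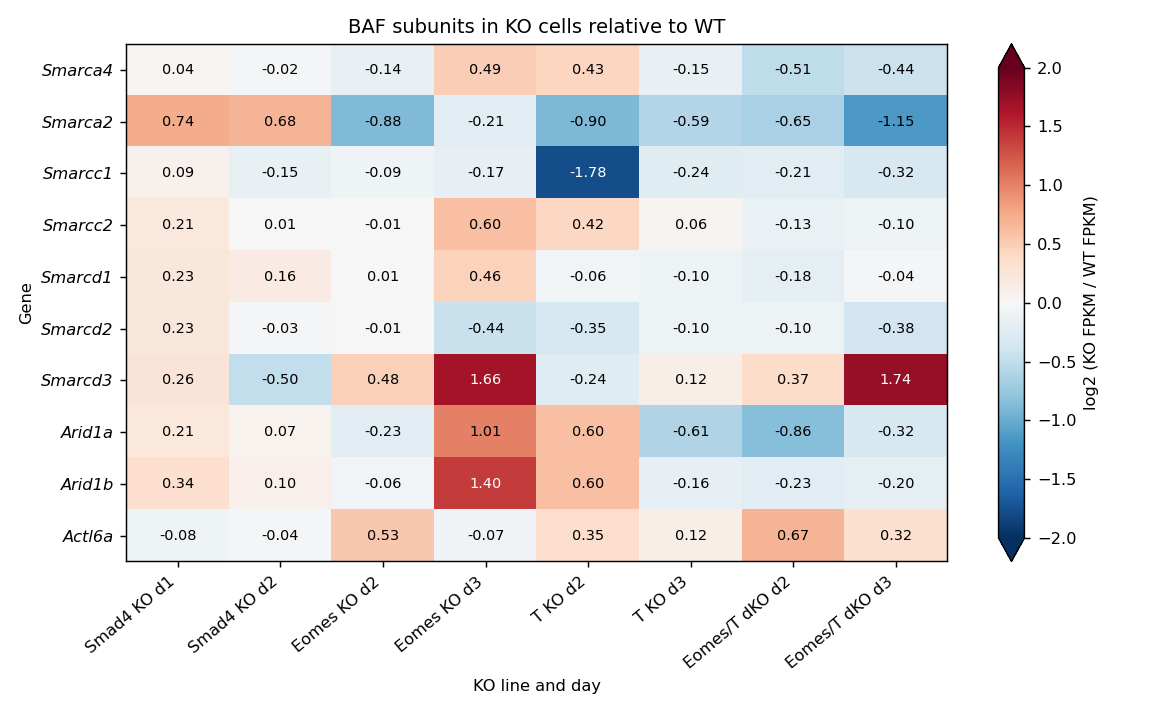
Log2 ratio of KO to WT FPKM for the 10 subunits (rows) in the 8 KO comparisons (columns), red for higher and blue for lower in KO, with the value in each cell and no pseudocount. *Smarca2* is higher in both *Smad4* KO columns and lower in the 6 others, which share their WT columns by day (*Eomes* KO day 3 turned to 0.07 in TPM). *Smarcc1* stands out in *T* KO cells on day 2 at −1.78, and *Smarcd3* is highest in *Eomes* KO (1.66) and dKO (1.74) cells on day 3.

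**Figure D4:**
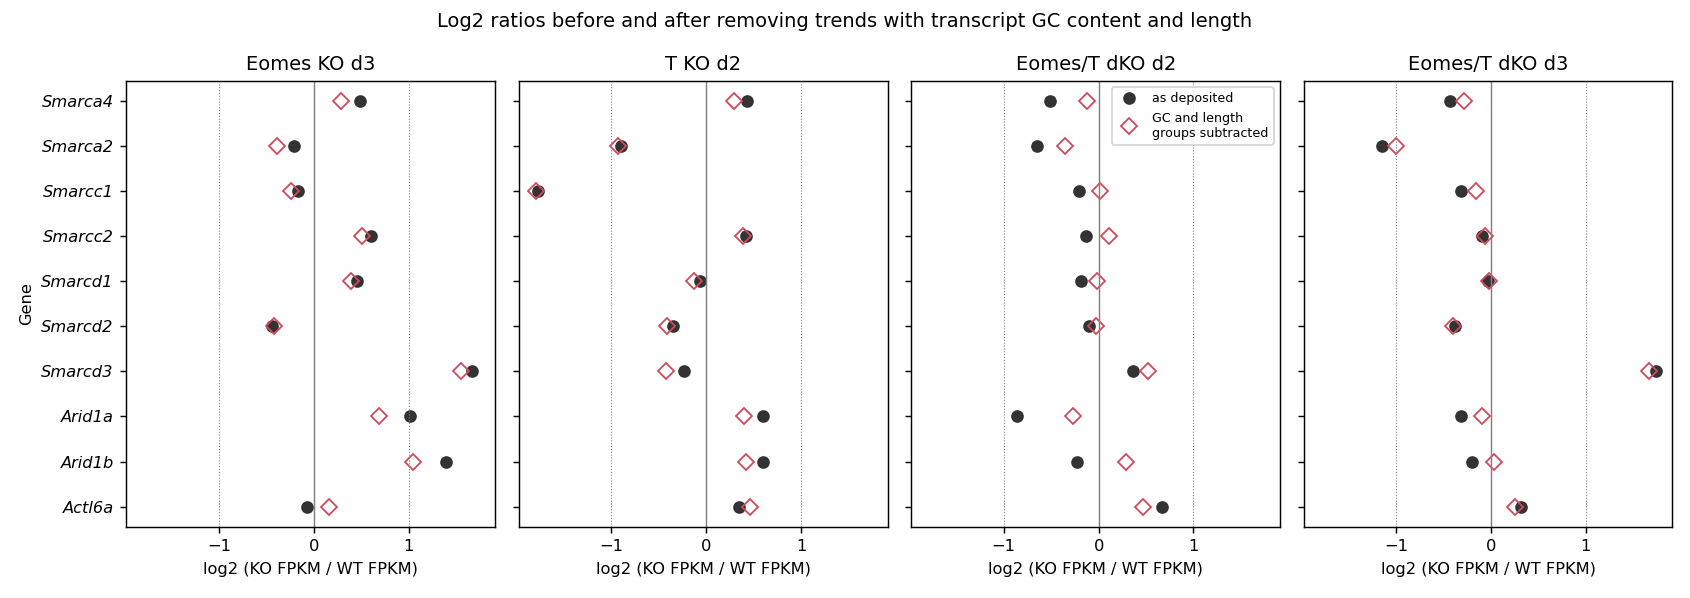
Log2 ratio of KO to WT FPKM (x axis) of each subunit (y axis) in the 4 KO columns named, as deposited (filled circles) and after subtraction of the median of 20 groups of genes by GC content and by length (open diamonds), with dotted lines at −1 and 1. The *Smarcc1* decrease in *T* KO cells on day 2 keeps its place, whereas *Arid1a* in *Eomes* KO cells on day 3 moves from 1.01 to 0.69 and in dKO cells on day 2 from −0.86 to −0.27.

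The remaining BAF genes were read as a list of 21, of which 17 were examined from ES cells to day 3 and 4 were called, 2 higher and 2 lower, where 31.1% of all examined genes were called. *Dpf3*, a subunit with PHD fingers known from heart and muscle, rose from 0.0419 in ES cells to 0.725 on day 2 and 2.56 on day 3, and its paralog *Dpf1*, known from neurons, fell from 9.53 to 2.81 and 1.32. The third paralog, *Dpf2*, had a log2 ratio of −0.06 from ES cells to day 3. *Bcl7c*, an accessory subunit, rose from 6.56 to 13.6, and *Bicral*, of the non-canonical complex, fell from 7.80 to 1.24. *Bcl11a* and *Bcl11b*, zinc finger proteins that join the canonical complex, were highest on days 1 and 2. *Bcl11a* stood at 0.591, 2.71, 2.85 and 0.774 at the 4 stages, and *Bcl11b* at 0.103, 0.966, 1.16 and 0.342. None of the 3 core genes *Smarcb1*, *Smarce1* and *Actb* and none of the 4 PBAF genes *Pbrm1*, *Arid2*, *Brd7* and *Phf10* was called in any of the 12 comparisons, in which 4.77% to 31.1% of all examined genes were. Mean FPKM over the 14 groups ran from 56.1 (*Smarcb1*) to 1130 (*Actb*) in the core, from 14.5 (*Arid2*) to 60.0 (*Phf10*) in PBAF, from 0.744 (*Bcl11b*) to 59.4 (*Ss18*) in the canonical list and from 0.259 (*Bicra*) to 21.9 (*Brd9*) in the non-canonical complex.

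**Figure D5:**
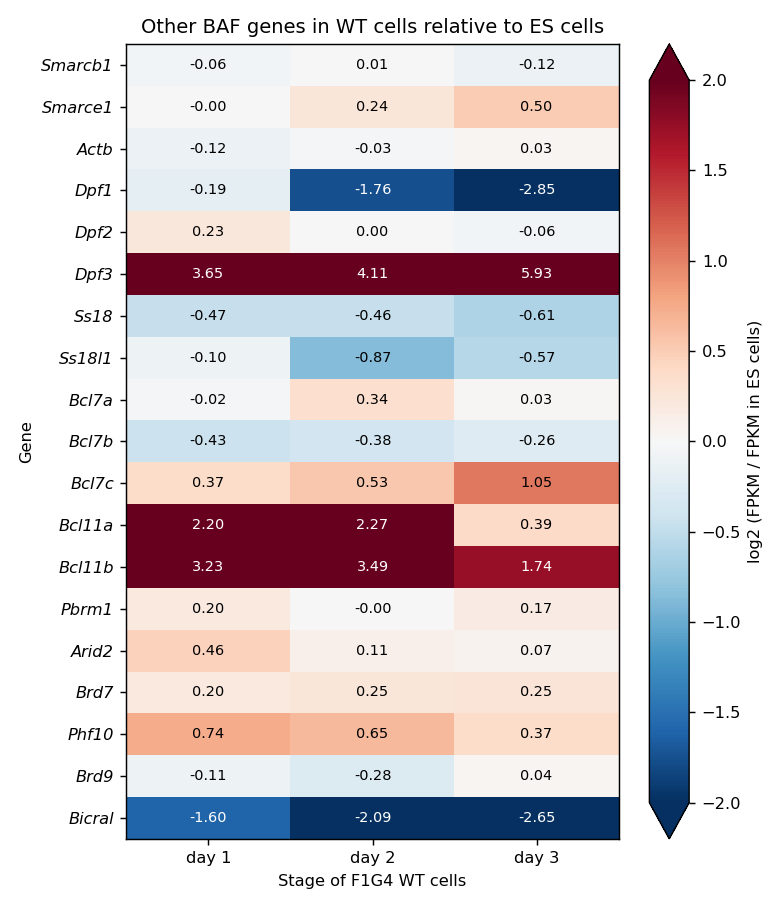
Log2 ratio of FPKM to that of ES cells for the 19 other BAF genes above FPKM 1 at a WT stage (rows) on days 1, 2 and 3 of F1G4 WT cells (columns), with the value in each cell and colours capped at 2 and −2. *Dpf3* reaches 5.93 on day 3 and *Dpf1* falls to −2.85, while the core and PBAF genes stay between −0.12 and 0.74.

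In the KO lines 0 to 2 of the 17 or 18 examined genes of this list were called by comparison, where 4.77% to 16.4% of all examined genes were. *Dpf3* and *Bcl11a* were each called in 3 of 8 comparisons, the most in this list. *Dpf3* was higher on day 3, at 9.69 against 2.67 in *Eomes* KO, 7.08 against 2.58 in *T* KO and 5.57 against 2.66 in dKO cells, which share their WT column. *Bcl11a* fell in the *Smad4* KO on day 1 (0.476 against 1.98) and rose there on day 2 (2.88 against 1.20), and it rose in dKO cells on day 3 (1.97 against 0.803). Further calls were *Bcl7c* in *Eomes* KO cells on day 3 (log2 −1.03), *Ss18l1* in *T* KO cells on day 2 (1.03) and *Dpf1* in *T* KO cells on day 3 (−1.24). *Ss18*, a subunit shared by canonical and non-canonical BAF, was listed at 0 in dKO cells on day 3 and is left without a ratio. It is among the 18 genes examined there but is not counted as called, whereas the share of all genes called includes genes listed at 0. *Msgn1* and *Rock1*, also above FPKM 10 in WT, were listed at 0 in that column too. *Msgn1* was likewise at 0 in *Eomes* KO and *T* KO cells on day 3.

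Among the ATPases of other remodelling complexes, 5 of 16 examined fell from ES cells to day 3 and 0 rose, where 12.6% of all examined genes were lower and 18.5% higher, with *Smarcad1* at 118 and 29.2, *Hells* at 427 and 141, *Chd9* at 14.7 and 4.29, *Ino80* at 22.0 and 7.62 and *Atrx* at 71.4 and 32.9. *Hells*, a remodeller tied to DNA methylation, had the highest mean FPKM of the list (229) and *Chd5* the lowest (0.462). The median log2 ratio of this list was −0.59, that of the BAF members −0.62 and that of the other BAF genes 0.03. In the KO lines only *Chd9* in *Eomes* KO cells on day 3 was called (11.9 against 4.50, log2 1.40), where 4.77% to 16.4% of all examined genes were called by comparison. Of the factors known to work with BAF in ES cells, *Pou5f1* fell from 1002 to 465 between ES cells and day 3 and *Sox2* from 256 to 20.4. *Nanog* stood at 148, 16.1, 120 and 119 from ES cells to day 3, so that its low value was that of day 1.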

How the data were processed

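The authors trimmed the reads of strand-specific libraries (cutadapt 2.9), aligned them to mm10 with HISAT2 2.1.0 and computed FPKM with Cuffdiff 2.2.1, which pooled the samples of a group and corrected for multi-mapping reads and bias. Tools and versions are those of the submitters' processing notes and the methods. The deposited FPKM values are 1 per gene and group, in 9 tables, with no counts, so that depth and counting precision are unknown. Ratios were taken within a table, except between the WT lines. The F1G4 WT columns of the KO tables were multiples (0.989 to 1.04) of the time-course columns.

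A gene was examined above FPKM 1 in either group and called past 2-fold, without a pseudocount, and a 1.5-fold ratio was used as a description. No test was possible. Transcript length and GC content were those of the longest GENCODE M21 transcript of each symbol, with 24034 symbols matched and 504 not. Promoter windows came from RefSeq. The ATAC-seq and ChIP-seq samples of the series were not analysed here. The members and lists were chosen with earlier results of these data known. Named are all members, other BAF genes and remodelling ATPases past 2-fold or at the extremes of mean FPKM in their list, partner factors, targeted genes, and the 3 nearest profiles of the members with the widest and narrowest WT range. *Dpf2*, *Rock1*, *Msgn1*, *Rn45s* and *Gm5643* were named after their values were seen. The calling rule was tested on simulated data, whose outcome is not given here, and no result above rests on it. Alternatives were pseudocounts of 0.1 and 1, no FPKM minimum, FPKM above 5, TPM (with the minimum on TPM, or on FPKM as added after seeing the data), centring on the median gene and subtraction of GC and length groups. Python 3.11.15, numpy 2.4.6, pandas 2.3.3 and matplotlib 3.10.9 were used.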

Additional observations from a re-analysis of the deposited data

Results flagged for a closer look

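*Smarca2* lay past 1.5-fold on opposite sides of WT in different KO lines on day 2, higher in *Smad4* KO cells (log2 0.68) and lower in the others. The log2 ratios differed by 1.56 from *Eomes* KO cells (−0.88), by 1.58 from *T* KO cells (−0.90) and by 1.33 from dKO cells (−0.65). After subtraction of the GC and length groups the ratios were 0.67, −0.78, −0.93 and −0.35 in the same order, the last of them inside 1.5-fold. The *Smad4* line has its own WT cells, and these already exceeded F1G4 WT cells in *Smarca2* by log2 0.63 on that day.

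Among KO columns of the same day or the same line, *Arid1a* was past 1.5-fold in opposite directions in 3 pairs. On day 3 *Eomes* KO cells (1.01) and *T* KO cells (−0.61) differed by 1.62. *T* KO cells differed between day 2 (0.60) and day 3 by 1.21, and on day 2 they differed from dKO cells (−0.86) by 1.46. After subtraction of the GC and length groups the ratios were 0.69 in *Eomes* KO cells on day 3, 0.40 in *T* KO cells on day 2, −0.50 in *T* KO cells on day 3 and −0.27 in dKO cells on day 2, so that only the first of these stayed past 1.5-fold. None of these differences was tested, since each column is a single value, and the F1G4 KO lines share their WT columns.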

How the results depend on the processing

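The counts of members past 2-fold kept within 1.5 times in 80 of 96 alternatives. The medians over the members moved by less than 0.14, the members' median absolute difference between WT lines on day 2, in 86 of 96. This rule does not record a change of sign. With the GC and length groups subtracted, the median from ES cells to day 1 went from 0.020 to −0.032. In *Eomes* KO cells on day 2 it went from −0.035 to 0.064, and in *Smad4* KO cells on day 2 from −0.0061 to 0.0053. A pseudocount of 1 gave 1 member from ES cells to day 1, 0 from day 2 to day 3, 2 from ES cells to day 3, 1 in *Eomes* KO cells on day 3 and 0 in dKO cells on day 3. The shares of all genes called were then also lower, at 7.44%, 5.18%, 22.9%, 9.31% and 5.91% in the same order. As deposited they were 13.5%, 10.2%, 31.1%, 16.4% and 11%. FPKM above 5 gave 0 of 7 members from ES cells to day 1 (8.29% of all genes) and 1 of 8 in dKO cells on day 3 (6.89%). *Smarca2* and *Smarcd3*, the members called from ES cells to day 1 as deposited, were below that minimum there. The medians were −0.51 from day 1 to day 2 and 0.35 in *T* KO cells on day 2. Without a minimum, and in TPM with the minimum set on TPM, *Smarcd3* was called from day 1 to day 2, 1 member in each, where 20.5% and 14.2% of all genes were called. TPM gave 2 members from ES cells to day 3 (34.3% of all genes), 1 in *Eomes* KO cells on day 2 (11.7%) and 2 in dKO cells on day 2 (17.5%). Its medians were −0.25 and −0.60 in the last 2 columns and 0.76 in *Eomes* KO cells on day 3. TPM over the genes examined by FPKM, an alternative chosen after seeing the data, gave the same member counts and medians. The shares of all genes were then 31.2%, 9.22% and 15.3%. Subtraction of the GC and length groups gave 1 member in dKO cells on day 3 (10.3% of all genes), and medians of −0.0055 and −0.080 in dKO cells on days 2 and 3. Multiplied by GENCODE transcript length, the *Smarcc2* share was 16.3% on WT day 3 and the *Smarcd3* share 2.57% in ES cells. The *Arid1b* share was then 8.21% in ES cells and 23.3% on day 3. Beyond the change of setting itself, the cause of these shifts was not tested.

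No paired analysis was possible because each deposited column pools its group and carries no replicate number, so that there was no replicate to leave out. *Smarcd3*, near or below FPKM 1 in all groups, lost each of its calls with a pseudocount of 1. Differences between KO and WT are also differences between clones.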
